A study of Danio rerio with 50 samples.

Results

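The vitellogenin family on these zebrafish liver arrays was made up of 6 genes, vtg2, vtg3, vtg4, vtg5, vtg6 and vtg7, taken by annotated symbol, with older names brought up to date (the vtg7 probe carries a clone name and both vtg5 probes an older gene name). They were 6 of 9264 genes with 1 symbol and were read by 21 of 23232 probes. Of these probes 15 were annotated to vtg3, all through 1 transcript accession, so they are repeat readings of 1 gene and not independent evidence. vtg5 had 2 probes and each other member had 1. All 21 probes passed the filter on missing values. No probe was annotated to vtg1.

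Vitellogenins are large lipid transfer proteins that the liver of egg-laying females makes, loads with lipid and secretes, and that growing oocytes take up and cut into yolk proteins. Their genes are switched on by estrogen acting through estrogen receptors in hepatocytes, and male liver, which normally makes little, does the same when given estrogen; vitellogenin in male fish is for that reason a standard marker of estrogen exposure. In zebrafish vtg4, vtg5, vtg6 and vtg7 belong, with vtg1, to the closely related type I group, vtg2 to the type II group, and vtg3 encodes the form that lacks the phosphate-rich phosvitin domain. In the annotation of the GRCz12tu assembly vtg5, vtg4, vtg6, vtg7 and vtg2 lie in this order on one chromosome and vtg3 lies on another.

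The fish were adult males, either untreated or kept in water with 0.5, 5 or 50 µg/L estradiol, the natural estrogen, and liver was taken at 24 or 96 h. At 24 h there were 8 untreated samples and 6 at each dose. At 96 h there were 7 untreated samples and 6, 4 and 7 samples at 0.5, 5 and 50 µg/L. For 6 samples the description gave another time than the title, and the title was used. The labels call the samples biological replicates but do not give tanks, and a p-value here covers only the spread among the samples held. Each array held the fish sample in Cy5 (red) and, in Cy3 (green), a common pool made from wild-type livers of both sexes. A value is the log2 ratio of the fish sample over the pool; a ratio of 0 means equal signal, and since the pool holds female RNA it contains vitellogenin transcript from females. No dyes were swapped, which leaves any dye effect inside a single ratio and removes it only from differences between groups.

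The scanner files of the 35 treated arrays gave the brightness of each spot. No scanner file of the 15 untreated fish was analysed here, and whether a member was above background in untreated fish is unknown. Between 25.7% and 96.3% of Cy5 spots lay above background per treated array. The 5 arrays under 60% were all at 50 µg/L, replicates 3, 4 and 5 at 24 h and replicates 3 and 4 at 96 h. They are called low-signal arrays here. All 10 tested hepatocyte markers were above background on at least 28 of 35 arrays. So were all tested markers of exocrine pancreas (7), erythrocytes (5), macrophages and neutrophils (4), intestine (4) and muscle (5), along with 4 of 7 of testis and 3 of 9 of oocyte and ovary. In whole liver, fewer cells of a type and less RNA per cell cannot be told apart.

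vtg3 and vtg7 rose by several log2 units in estradiol-exposed males, vtg3 in all 6 comparisons with untreated fish and vtg7 in all but that of the lowest dose at the shorter time, while vtg2, vtg4, vtg5 and vtg6 differed by less than 1 log2 unit throughout. Unlike vtg3 and vtg7, the probes of vtg2, vtg4, vtg5 and vtg6 did not read far below the pool in untreated fish. Whether they read their transcripts was not tested. At 24 h the number of the 21 vitellogenin probes that rose against untreated fish (adjusted p under 0.05 in limma, over all 22046 probes tested) was 15 at 0.5 µg/L, where 0.209% of all tested probes rose, 16 at 5 µg/L (2.93% of all) and 17 at 50 µg/L (7.09% of all). At 96 h it was 16 (2% of all), 17 (7.12% of all) and 17 (9.19% of all) at the same doses. No vitellogenin probe fell in any of them, where 0.295%, 3.15% and 5.7% of all tested probes fell at 0.5, 5 and 50 µg/L and 24 h and 1.25%, 5.48% and 8.78% at 96 h. These counts rest mostly on vtg3, which supplied 15 in each; vtg7 was added in every comparison other than 0.5 µg/L at 24 h, vtg4 at 50 µg/L and 24 h, and vtg2 at 5 and 50 µg/L and 96 h.

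The vtg3 ratio was below that of the pool in untreated fish and above it in treated fish. The mean over its 15 spots, given as the lowest, median and highest array of a group, was -3.57, -3.15 and -2.66 in untreated fish at 24 h. It was 0.05, 1.12 and 2.1 at 0.5 µg/L, 3.44, 3.61 and 3.82 at 5 µg/L, and 3.28, 4.08 and 4.63 at 50 µg/L. All 6 arrays of each dose therefore lay above all 8 untreated ones, and those of 5 µg/L also lay above all of 0.5 µg/L, whereas 50 and 5 µg/L overlapped. How many of all tested probes separated the same groups was not counted, here or for the other overlap statements below.

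At 96 h the vtg3 mean ratio was -3.84, -3.22 and -2.55 in untreated fish and 3.56, 4.12 and 4.43 at 0.5 µg/L. The 4 arrays of 5 µg/L read 3.89, 4.27, 4.66 and 4.96, and those of 50 µg/L 4.27, 5.00 and 5.41. Every treated array again lay above every untreated one, but each dose overlapped the next. The order of the group means over both times was untreated at 96 h and at 24 h, then 0.5, 5 and 50 µg/L at 24 h, then 0.5, 5 and 50 µg/L at 96 h. The untreated groups overlapped, and the difference between them ran from -0.22 to 0.15 over the 15 probes, none of which was called. Within 1 array the 15 spots differed by a standard deviation (SD) of 0.26 in the median array and of 0.07 to 0.62 over all arrays.

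**Figure D1:**
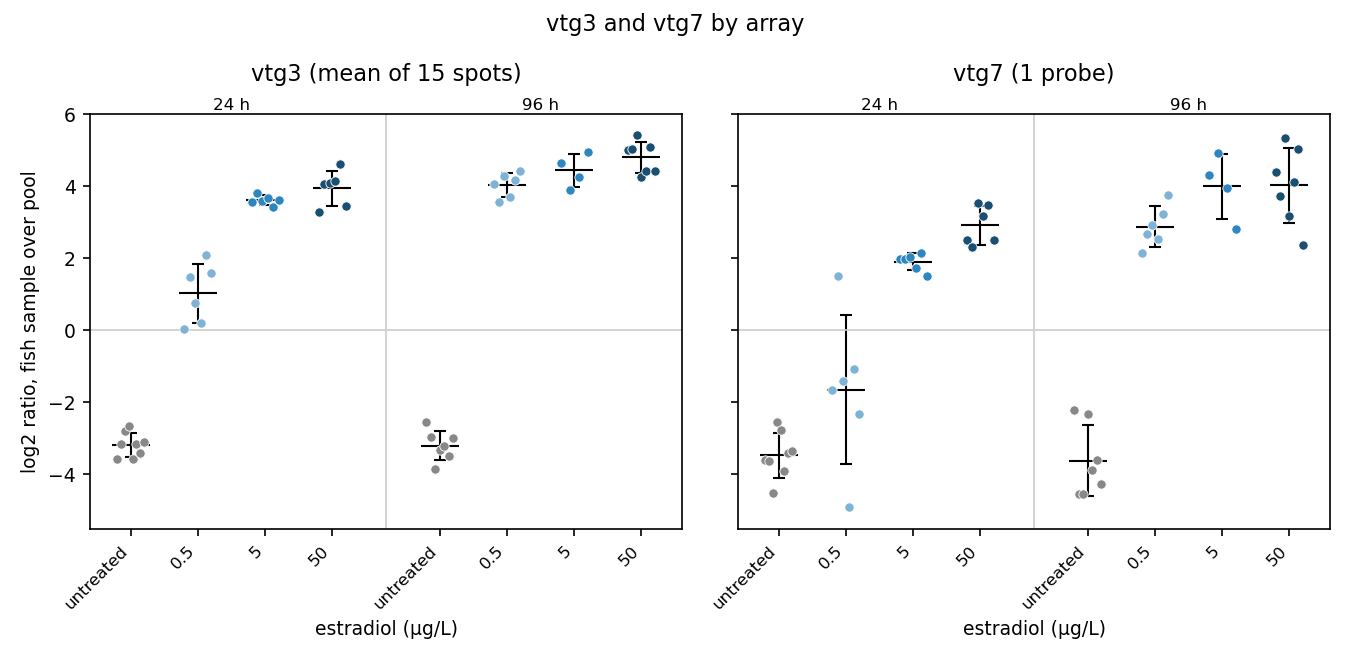
Log2 ratio of the fish sample over the pool on each array (points), by estradiol dose and time, with the group mean and SD (bars), for the mean of the 15 vtg3 spots and for the vtg7 probe. Untreated fish lay between -3.84 and -2.55 for vtg3 and the 0.5 µg/L group at 24 h spread from -4.91 to 1.52 for vtg7.

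Against untreated fish at 24 h, the 15 vtg3 probes were higher by a log2 difference of 4.00 to 4.50 (median 4.18, or 18.1-fold) at 0.5 µg/L, of 6.54 to 7.16 (median 6.76, 109-fold) at 5 µg/L and of 6.85 to 7.45 (median 7.13, 140-fold) at 50 µg/L. At 96 h the differences were 6.85 to 7.80 (median 7.15, 143-fold), 7.16 to 8.20 (median 7.62, 196-fold) and 7.53 to 8.53 (median 7.97, 251-fold) at the same doses. Standard errors (SE) were between 0.22 and 0.36 in these 6 comparisons, and the largest limma adjusted p was 2.436e-15, at 0.5 µg/L and 24 h. Without the low-signal arrays the differences at 50 µg/L were 6.49 to 7.08 at 24 h and 7.62 to 8.50 at 96 h, with all 15 probes still called.

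Most of these vtg3 folds were read from spots too bright for the scanner, whose scale ends at 65535 units. At 24 h, Cy5 was at that top on 0 of 90 vtg3 spots at 0.5 µg/L, 45 of 90 at 5 µg/L and 26 of 90 at 50 µg/L. At 96 h it was at the top on 88 of 90, 60 of 60 and 83 of 105. The only treated group in which vtg3 was within range on every array was thus 0.5 µg/L at 24 h. No Cy3 spot of vtg3 was saturated, and all its Cy5 spots were above background.

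A probe saturated on every array of a group gives a lower bound. At 5 µg/L and 96 h this held for all 15 vtg3 probes, which were at least 143- to 294-fold higher than in untreated fish. It held for 13 probes at 0.5 µg/L and 96 h (at least 116- to 223-fold), for 3 at 50 µg/L and 96 h (at least 221- to 365-fold) and for 1 at 5 µg/L and 24 h (at least 107-fold). The other vtg3 probes of these groups were saturated on part of the arrays, so their folds were held down too. At 50 µg/L and 96 h these were 12 probes, each saturated on 4 to 6 of 7 arrays. The bounds depend on the untreated arrays, whose background is unknown, and on the scaling. With quantile normalization between arrays the 15 probes were 91.2- to 184-fold higher than in untreated fish at 5 µg/L and 96 h, and 116- to 225-fold at 50 µg/L and 96 h. Where Cy5 stands at its top on all arrays, what still differs between their raw ratios is Cy3, so the order of the 96 h doses is not a measurement of vtg3 in the fish sample. On the low-signal arrays fewer of the 15 spots were saturated: 0, 1 and 0 on replicates 3, 4 and 5 of 50 µg/L at 24 h, against 7 to 10 on the other arrays of that group, and 3 and 6 on replicates 3 and 4 at 96 h, against 14 or 15 on the others.

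**Figure D2:**
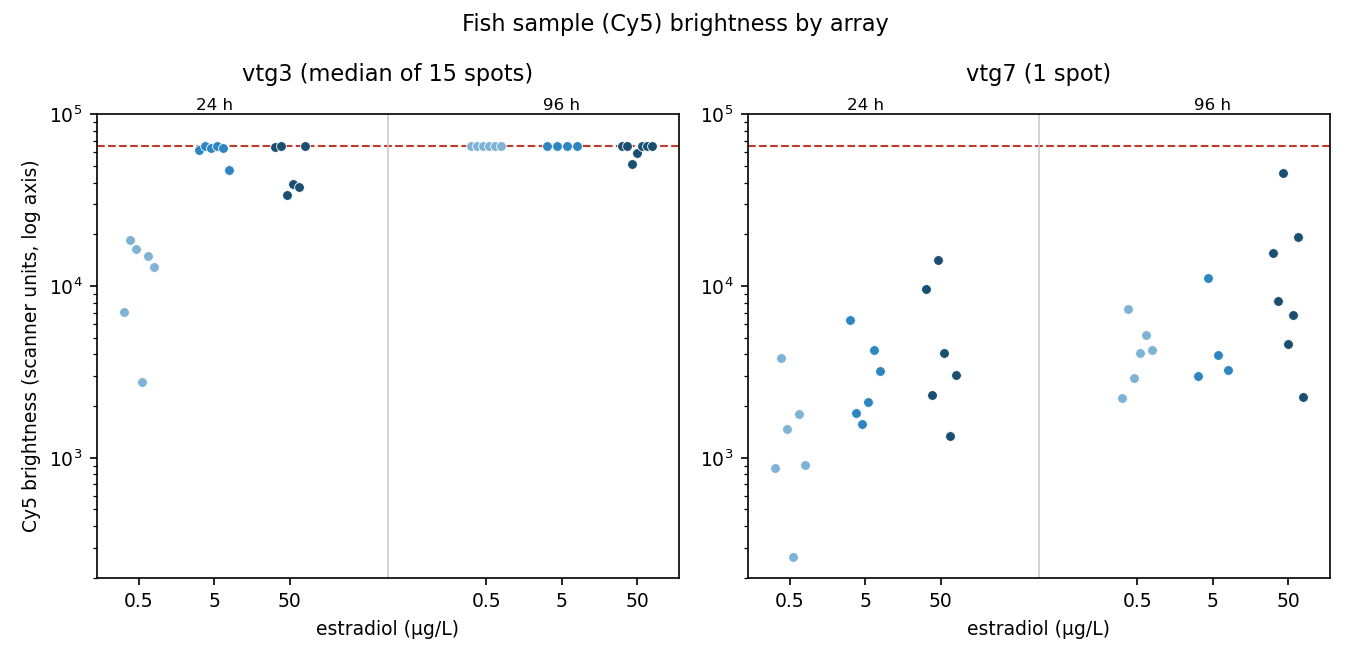
Cy5 brightness of the fish sample on each treated array (points, scanner units, log axis), by dose and time, for the median of the 15 vtg3 spots and the vtg7 spot; the dashed line is the top of the scanner's range, 65535. vtg3 ranged from 2750 to 18625 at 0.5 µg/L and 24 h and from 33715 to 65535 in the other groups, and the highest vtg7 spot was 45837.

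vtg7, a type I gene, gave no saturated spot on any of the 35 treated arrays. At 24 h its ratio, as lowest, median and highest array, was -4.52, -3.50 and -2.54 in untreated fish. At 5 µg/L it was 1.51, 1.99 and 2.15, and at 50 µg/L 2.33, 2.84 and 3.55. All arrays of both doses lay above all untreated ones, and those of 50 µg/L lay above those of 5 µg/L without overlap. The share of all tested probes that did the same was not counted.

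The 0.5 µg/L group at 24 h was the most scattered, with vtg7 ratios of -1.65, 1.52, -1.41, -4.91, -1.07 and -2.31 in replicates 1 to 6 and an SD of 2.07. Replicate 4 lay below every untreated array of that time and the other 5 above all of them. The same arrays read 0.05, 1.48, 0.77, 0.21, 2.1 and 1.60 for vtg3, so that replicate 4, the lowest for vtg7, was still far above untreated fish for vtg3. The vtg7 difference from untreated fish was 1.82 ± 0.51 (SE), or 3.53-fold, with an adjusted p of 0.0885 in limma. It did not pass the threshold with all arrays and did so without replicate 4 (2.47, adjusted p = 0.000937).

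At 96 h vtg7 read -4.53, -3.87 and -2.21 in untreated fish and 2.15, 2.80 and 3.77 at 0.5 µg/L. The 4 arrays of 5 µg/L read 2.81, 3.95, 4.32 and 4.94, and 50 µg/L spanned 2.38, 4.11 and 5.35. Every treated array lay above every untreated one, and the 3 doses overlapped each other. The order of the vtg7 group means was untreated at 96 h (-3.62) and 24 h (-3.46), 0.5 µg/L at 24 h (-1.64), 5 µg/L at 24 h (1.90), 0.5 µg/L at 96 h (2.88), 50 µg/L at 24 h (2.92), 5 µg/L at 96 h (4.00) and 50 µg/L at 96 h (4.03).

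In limma vtg7 rose by a log2 difference of 5.37 ± 0.51 (SE, 41.3-fold) at 5 µg/L and 6.39 ± 0.51 (83.6-fold) at 50 µg/L and 24 h, with adjusted p of 1.515e-11 and 2.02e-14. At 96 h it rose by 6.50 ± 0.52 (90.6-fold), 7.62 ± 0.59 (197-fold) and 7.64 ± 0.50 (200-fold) at 0.5, 5 and 50 µg/L, the largest adjusted p of the 3 in limma being 4.866e-14.

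**Figure D3:**
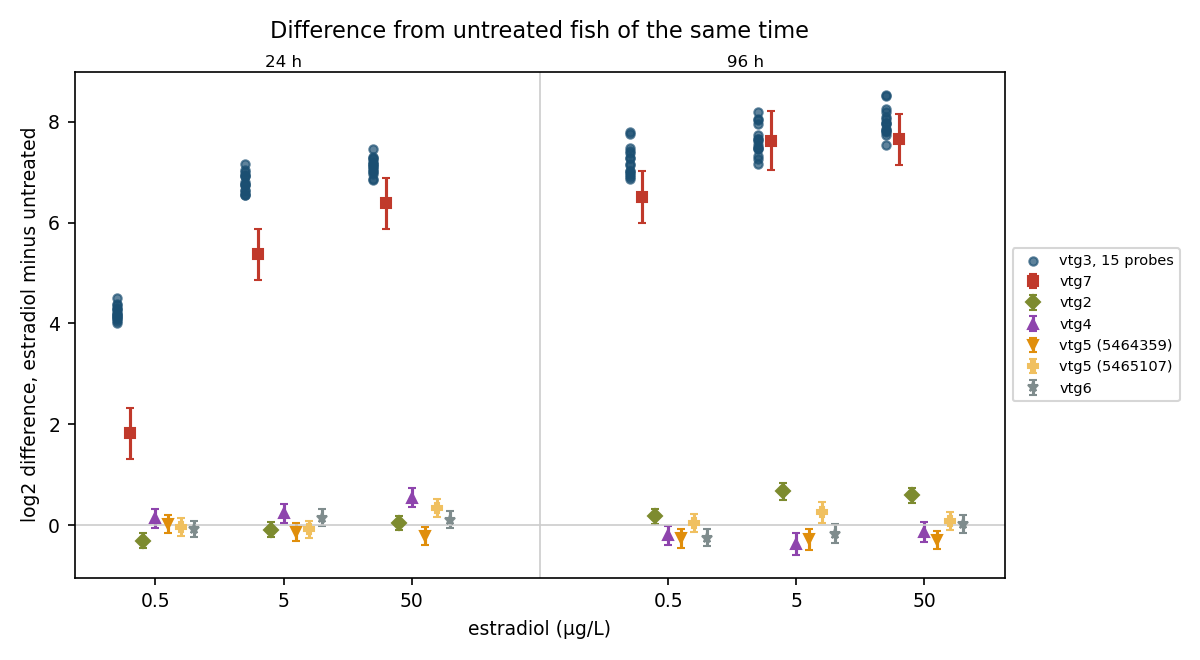
Log2 difference from untreated fish of the same time for each member, by estradiol dose; vtg3 is shown as its 15 probes and the other probes with their SE. vtg3 and vtg7 lay at 1.82 or more in all 6 comparisons, and no other member exceeded 0.68.

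Between neighbouring doses, members passed the limma threshold at the low end and the shorter time alone. Between 5 and 0.5 µg/L at 24 h, 16 vitellogenin probes rose, where 2.76% of all tested probes did. The vtg3 probes differed by 2.31 to 2.92 (log2) and vtg7 by 3.55 ± 0.54 (SE, limma adjusted p = 1.08e-05). The vtg3 step was held down in so far as 45 of its 90 spots at 5 µg/L were saturated.

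No vitellogenin probe was called in limma between 50 and 5 µg/L at 24 h (0.349% of all tested probes were called), between 5 and 0.5 µg/L at 96 h (2.59%) or between 50 and 5 µg/L at 96 h (0%). At an unadjusted p under 0.05 there were 1, 2 and 1 of 21 in these 3 comparisons, where 5.93%, 11.2% and 5.14% of all tested probes had one. The vtg3 differences were 0.10 to 0.50, 0.15 to 0.67 and 0.13 to 0.62, all from groups with saturated spots. Without the low-signal arrays, 50 against 5 µg/L at 24 h gave vtg3 differences between -0.22 and 0.08, so the direction of that step depended on those 3 arrays.

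For vtg7, which was not saturated, the step from 5 to 50 µg/L at 24 h did not pass in the fit over all probes. A test of its own values was chosen after the groups were seen not to overlap, so its outcome was fixed and is no added support. The difference was 1.02 ± 0.54 (SE), with a limma adjusted p of 0.897, a fit that shares 1 spread over groups as unequal as 0.5 µg/L (SD 2.07) and 5 µg/L (SD 0.24) at that time. All 6 arrays of 50 µg/L stood above all 6 of 5 µg/L, and a two-sided exact permutation test, added after this was seen, gave p = 0.00216, the smallest that 6 against 6 arrays allow, or 0.0108 adjusted over 5 such vtg7 comparisons. The p therefore restates that the groups did not overlap. The limma value was adjusted over 22046 probes and the exact one over 5 comparisons, so the adjusted values are not alike. How many other probes separated these groups was not counted. On Cy5 alone the same step was 1.18 with exact permutation p = 0.121 (adjusted 0.242). Without the 3 low-signal arrays the difference was 0.55 and the groups still did not overlap (exact permutation p = 0.0238, the smallest that 3 against 6 arrays allow, and 0.0476 adjusted over 2 tests).

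The other 4 exact permutation tests of vtg7 ratios gave p = 0.00433 (adjusted 0.0108) for 5 against 0.5 µg/L at 24 h and p = 0.0326 (adjusted 0.0544) for 0.5 µg/L against untreated fish at 24 h. For 5 against 0.5 µg/L at 96 h the difference was 1.12 with exact permutation p = 0.0476 (adjusted 0.0595). For 50 against 5 µg/L at 96 h it was 0.02 with exact permutation p = 0.97 (adjusted 0.97).

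The longer exposure went with a larger vtg3 and vtg7 difference in the ratio at the lowest dose. The difference between 0.5 µg/L and untreated fish was larger at 96 h than at 24 h for 16 of 21 vitellogenin probes, called in limma, where 0.699% of all tested probes showed such an increase. For the vtg3 probes the increase was 2.53 to 3.47 (median 3.03, log2), held down because 88 of 90 spots were saturated at 96 h. With quantile normalization between arrays it was 2.37 to 3.32. For vtg7 it was 4.68 ± 0.73 (SE, limma adjusted p = 2.78e-05). Between the 0.5 µg/L groups, log2 Cy5 of vtg7 over the array's median was higher by 1.95 at 96 h. The pool's log2 Cy3 differed by -2.50, and its part in the increase was not tested. At 5 and 50 µg/L no probe was called for the same difference between times (1.27% and 0.195% of all tested probes were called), although 12 and 16 of the 21 had an unadjusted limma p under 0.05, as did 11.6% and 10.7% of all tested probes. Of those 12 and 16, 9 and 14 were repeat spots of vtg3, from groups with saturated spots. With array weights 1 of the 15 vtg3 probes was called at 50 µg/L.

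Both channels of the vtg7 spot differed between groups. The pool was described as 1 RNA mixture for all arrays, and its vtg7 signal, as log2 Cy3 brightness over the array's median, was nevertheless 2.64 ± 1.28 (SD, n = 6) at 0.5 µg/L and 24 h, 0.64 ± 0.67 (n = 6) at 5 µg/L and 0.81 ± 1.08 (n = 6) at 50 µg/L. At 96 h it was 0.14 ± 0.66 (n = 6), -0.41 ± 0.31 (n = 4) and 0.84 ± 1.13 (n = 7) at the same doses. Before scaling, the Cy3 spot had a median of 3530 units at 0.5 µg/L and 24 h (966 to 12796), against medians between 391 and 1242 units in the other 5 groups.

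Against 0.5 µg/L at 24 h, the pool's vtg7 signal was lower by a log2 difference of -2.0 at 5 µg/L and 24 h, of -1.83 at 50 µg/L and 24 h, and of -2.50 at 0.5 µg/L and 96 h. In each of these 3 comparisons 0 of 22046 probes had a lower Cy3 difference. Two-sided exact permutation tests gave p = 0.00649, 0.0238 and 0.00433, or 0.0162, 0.0397 and 0.0162 adjusted over 5 Cy3 comparisons. These 3 tests share the arrays of 0.5 µg/L at 24 h and are not independent of each other. The other 2 did not pass: against 0.5 µg/L at 96 h the pool's vtg7 signal differed by -0.55 at 5 µg/L (exact permutation p = 0.171, adjusted 0.200) and by 0.70 at 50 µg/L (p = 0.200, adjusted 0.200), where Cy5 was higher too, by 1.68. The median Cy3 differences of vtg3 were -0.18, 0.01 and -0.34 in the 3 comparisons with 0.5 µg/L at 24 h.

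**Figure D4:**
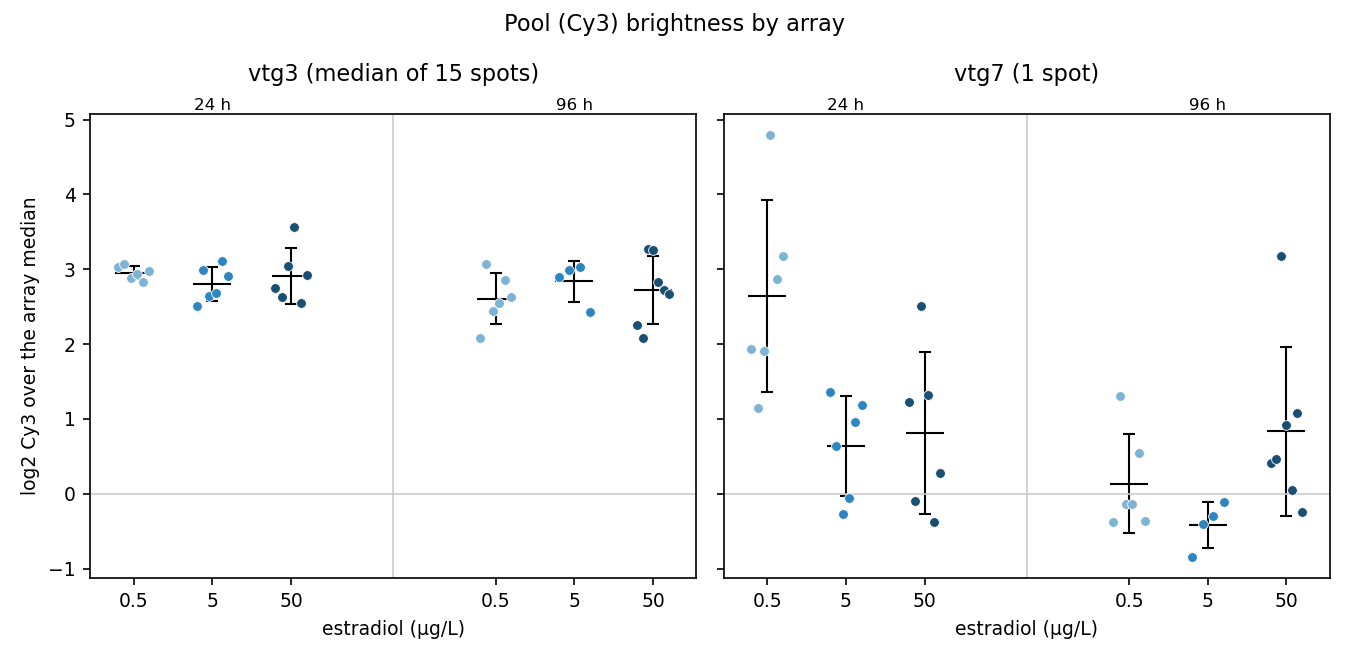
Log2 Cy3 brightness of the pool over the array's median on each treated array (points), with group mean and SD (bars), for the median of the 15 vtg3 spots and the vtg7 spot. The vtg7 spot was brightest in the pool at 0.5 µg/L and 24 h (mean 2.64), and vtg3 stayed between group means of 2.6 and 2.96.

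The denominator of the vtg7 ratio therefore differed between groups, and its part in the ratio differences was not tested. In the step from 0.5 to 5 µg/L at 24 h, where the ratio differed by 3.55, Cy5 over the array's median was higher by 1.57 and Cy3 lower by the 2.0 given above. Tested on Cy5 alone that step had an exact permutation p of 0.0238, or 0.0952 adjusted over 4 Cy5 comparisons, and the other 3 dose steps had adjusted values between 0.242 and 0.409. Within the 0.5 µg/L group at 24 h the array with the lowest vtg7 ratio, replicate 4, had the brightest Cy3 spot (12796 units, against 265 in Cy5), and replicate 2, with the highest ratio, the dimmest (966 units, against 3807 in Cy5). The low-signal replicate 3 of 50 µg/L at 96 h had the highest Cy3 over the array median in that group, 3.17, and the highest Cy5, 7.88. Why the pool's signal on this spot varied was not tested, and for the control arrays the channels are not known separately.

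vtg2, the type II gene, passed the threshold at 5 and 50 µg/L and 96 h alone, with differences under 1 log2 unit. At 96 h its ratio was -0.22, -0.09 and 0.37 (lowest, median, highest) in untreated fish and -0.22, 0.10 and 0.48 at 0.5 µg/L. The 4 arrays of 5 µg/L read 0.37, 0.47, 0.76 and 0.93, and 50 µg/L spanned 0.21, 0.56 and 0.91. All but 1 of the arrays at 5 µg/L and all but 1 at 50 µg/L lay above every untreated array of that time.

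The vtg2 difference was 0.68 ± 0.17 (SE, 1.60-fold, limma adjusted p = 0.0044) at 5 µg/L and 0.60 ± 0.15 (1.51-fold, adjusted p = 0.00217) at 50 µg/L. The untreated fish themselves differed, however. In untreated fish the vtg2 difference between 96 h and 24 h was -0.61 ± 0.14 (limma adjusted p = 0.0172), the 1 vitellogenin probe of 21 called in that comparison, where 1.02% of all tested probes were. That call was lost without replicate 1 or 2 of the untreated fish at 24 h or replicate 2 at 96 h (largest limma adjusted p = 0.0576). With the untreated fish of both times pooled, the vtg2 differences at 96 h were 0.35 (limma adjusted p = 0.233) at 5 µg/L and 0.27 (0.212) at 50 µg/L, and neither passed the threshold. At 24 h the differences were -0.30, -0.09 and 0.05 at 0.5, 5 and 50 µg/L and none passed it.

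Of the other type I genes, vtg4 passed the threshold in 1 comparison and vtg5 and vtg6 in none. vtg4 read -0.42, -0.03 and 0.78 in untreated fish at 24 h and -0.04, 0.60 and 1.19 at 50 µg/L, groups that overlapped apart from 2 arrays of 50 µg/L. The difference of 0.55 ± 0.19 (SE, 1.46-fold) had a limma adjusted p of 0.0459, and this call was lost without the low-signal arrays (0.59, adjusted p = 0.113) and when any of 13 single arrays was left out (replicates 1, 2, 3, 4 and 6 of 50 µg/L at 24 h, replicate 2 of 50 µg/L and replicate 3 of 0.5 µg/L at 96 h, and replicates 1, 3, 4, 6, 7 and 8 of the untreated fish at 24 h), with a largest adjusted p of 0.172. At 96 h the vtg4 differences were -0.20, -0.36 and -0.14 at 0.5, 5 and 50 µg/L, with limma adjusted p of 0.328 or more. vtg4 had no value on 1 array, which was left out of its fit. Its spot had a median Cy5 of 267.5 units at 50 µg/L and 24 h and was above background there on 4 of 6 arrays. At 0.5 and 5 µg/L and 24 h it was above background on 6 of 6 arrays each. At 96 h the count was 6 of 6, 4 of 4 and 6 of 7.

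For vtg5 and vtg6 the differences over the 6 comparisons ran from -0.29 to 0.03 for vtg5 probe 5464359, from -0.08 to 0.34 for probe 5465107 and from -0.24 to 0.16 for vtg6. The 2 vtg5 probes, which carry different accessions, were on opposite sides of 0 in 5 of the 6 comparisons. Cy5 of vtg5 probe 5464359 was above background on 5, 5 and 4 of 6 arrays of 0.5, 5 and 50 µg/L at 24 h. At 96 h it was above background on 5 of 6, 2 of 4 and 5 of 7. The vtg6 spot had median Cy5 brightness of 140 to 185 units in the treated groups. Its Cy5 was above background on 5, 4 and 3 of the 6 arrays of 0.5, 5 and 50 µg/L at 24 h. At 96 h the count was 4 of 6, 1 of 4 and 3 of 7. vtg6 had no value on 6 arrays, which were left out of its fit, and a change below background was not detectable for it. Type I genes resemble each other closely, and whether a probe also bound transcripts of its neighbours was not tested. In untreated fish at 24 h the mean ratio was 0.57 for vtg2, 0.07 for vtg4, 0.12 and 0.21 for the vtg5 probes and -0.003 for vtg6. It was -3.17 for vtg3 and -3.46 for vtg7, although the pool holds female RNA for all members. At 0.5 µg/L and 24 h the pool's mean log2 Cy3 over the array's median was -0.91 for vtg4 and -1.56 for vtg6. Whether these probes read their transcripts was not tested.

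**Figure D5:**
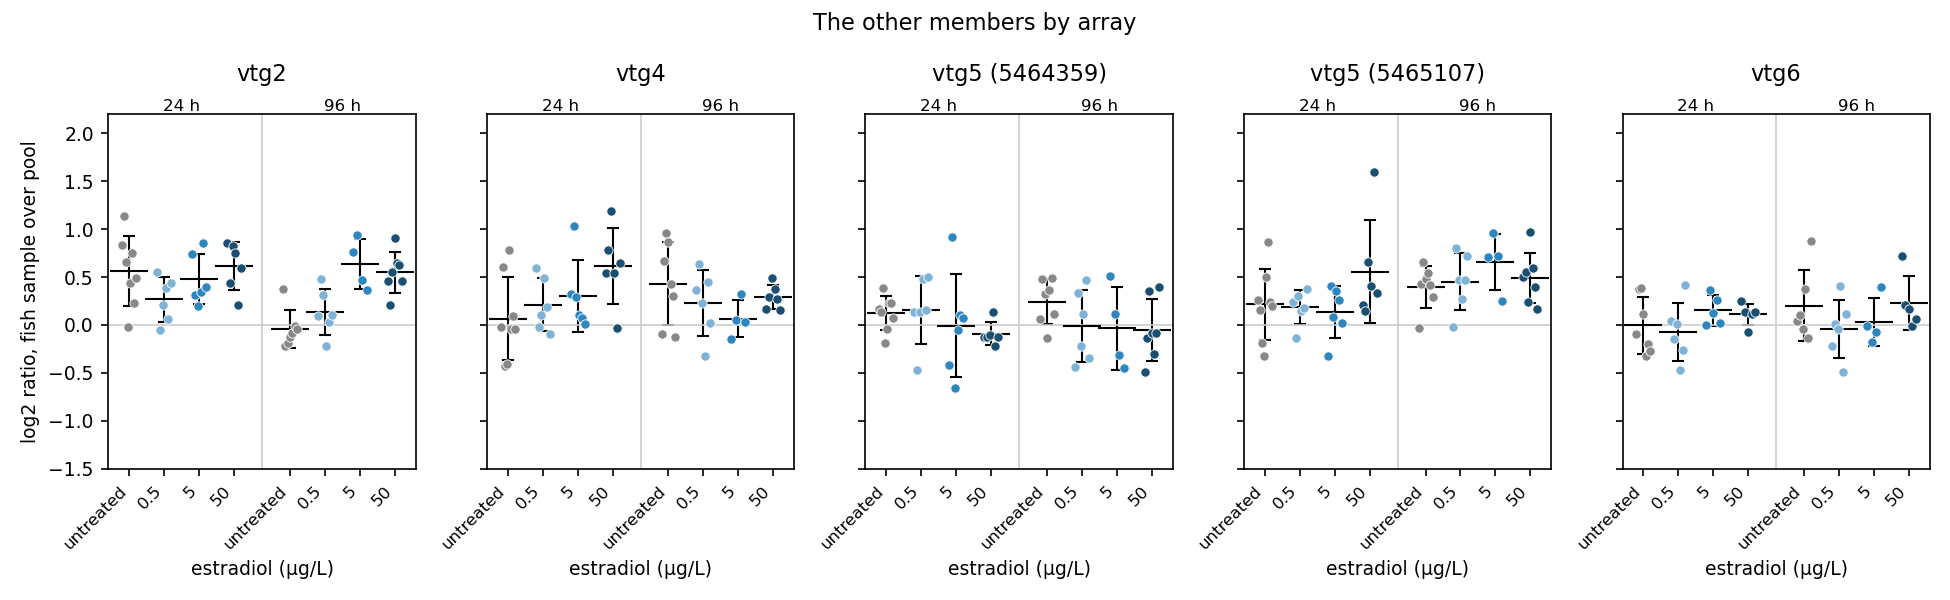
Log2 ratio of the fish sample over the pool on each array (points), with group mean and SD (bars), for vtg2, vtg4, the 2 vtg5 probes and vtg6, by estradiol dose and time. The axis is narrower than for vtg3 and vtg7; dose groups overlap untreated fish in every panel, and the highest value is 1.60, of vtg5 probe 5465107.

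Among 8658 other genes ranked by how closely their 6 log2 differences from untreated fish followed those of the vtg3 mean (root mean square difference, over 6 comparisons that share control arrays), the closest were nots (2.73), rtn1 (2.75), pax9 (3.06), cyp2k16 (4.02) and fabp1b.1 (4.1), and the median gene stood at 6.91. vtg7 stood at 1.22. This distance depends on the size of the differences, and whether a gene had the same course apart from size was not tested. The vtg3 mean was held down by saturated spots in 5 of the 6 comparisons, so these distances and their order are only those to the values the scanner could record. nots encodes nothepsin, an aspartic protease of fish liver, rtn1 a reticulon of the endoplasmic reticulum, pax9 a paired box transcription factor, cyp2k16 a cytochrome P450 and fabp1b.1 a liver fatty acid binding protein. At 0.5 µg/L and 24 h, the comparison without saturated vtg3 spots, nots differed by 0.51 and the vtg3 mean by 4.21. The 5 genes differed by 0.51 to 1.70 at 0.5 µg/L and 24 h and by 4.09 to 6.26 at 50 µg/L and 96 h. nots was saturated in Cy5 on 7 of 35 arrays and rtn1 on 3.

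Of the estrogen receptors and their cofactors, 7 of 12 were tested, and at 50 µg/L and 96 h 1 rose and 3 fell. Of all tested probes 9.19% rose and 8.78% fell there. esr1, which encodes the estrogen receptor that drives vitellogenin genes in fish liver, differed by 0.20, 3.27 and 3.60 at 0.5, 5 and 50 µg/L and 24 h, and by 2.43, 3.37 and 3.07 at 96 h, and was called in all but the first. vtg3 was 18.1-fold higher at 0.5 µg/L and 24 h, where esr1 did not pass the threshold (limma adjusted p = 0.873). The esr1 spot was above background in Cy5 on 24 of 35 treated arrays, and a change below background was not detectable for it. esr2a, a second receptor, fell by 0.76 on the log2 scale at 50 µg/L and 96 h, and foxa1, a transcription factor that opens chromatin, fell by 1.04 and ncoa2, a receptor coactivator, by 0.51. The list's median difference there was -0.51, against 0.03 over all tested probes.

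Of the genes that load and export large lipid transfer proteins, 9 of 14 were tested, and at 50 µg/L and 96 h 2 rose and 1 fell (list median 0.19). Of all tested probes 9.19% rose and 8.78% fell in that comparison. sar1b, a small GTPase of the vesicle coat that carries large cargo from the endoplasmic reticulum, rose by 1.14 and sec23a, a subunit of that coat, by 0.66. apobb.1, an apolipoprotein B gene of the same protein superfamily as the vitellogenins, fell by 2.09. mttp, which loads lipid onto both kinds of protein, differed by 0.50 there and did not pass the threshold (limma adjusted p = 0.064). At 50 µg/L and 24 h mttp rose by 0.59 (limma adjusted p = 0.033). In that comparison 3 genes of the list rose and 1 fell, where 7.09% and 5.7% of all tested probes did.

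Of the yolk protease, phosphorylation and uptake genes, 6 of 18 were tested, and at 50 µg/L and 96 h 3 rose and none fell (list median 0.83). Of all tested probes 9.19% rose and 8.78% fell in that comparison. The genes of the list that rose were nots (6.03) and 2 cathepsins, ctsba (1.32) and ctsd (0.93), lysosomal proteases of which ctsd is known to cut vitellogenin in oocytes. ctsl.1 differed by 0.73 and did not pass the threshold (limma adjusted p = 0.091). At 24 h, 1 gene of this list rose and 1 fell at 5 µg/L, and likewise at 50 µg/L. The one that rose was nots, by 3.41 and 4.69. The one that fell was ctsla, another cathepsin. It differed by -1.45 (limma adjusted p = 0.0056) at 5 µg/L and by -2.11 (limma adjusted p = 1.25e-05) at 50 µg/L. Of all tested probes 2.93% rose and 3.15% fell at 5 µg/L, and 7.09% and 5.7% at 50 µg/L. Of the egg coat genes, 10 of 15 were tested and 0 were called in limma at 50 µg/L and 96 h. An unadjusted p under 0.05 was held by 3 of them, and by 29.4% of all tested probes (list median 0.38). The 4 with the smallest p differed by the values that follow: zp3d.2 by 0.69, zp3d.1 by -0.44, zp3b by 1.02 and zp3.2 by 0.32. At 50 µg/L and 24 h 1 egg coat gene rose and 1 fell, where 7.09% and 5.7% of all tested probes did. They were zp3.2 (0.75, limma adjusted p = 0.0014) and zp3d.1 (-0.65, limma adjusted p = 0.012).

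Cell type markers moved in some of the same comparisons. Of 10 tested hepatocyte markers, 1, 5 and 7 fell at 0.5, 5 and 50 µg/L and 24 h and 0, 8 and 8 fell at 96 h, and none rose. Of all tested probes 0.295%, 3.15% and 5.7% fell at 24 h and 1.25%, 5.48% and 8.78% at 96 h. An unadjusted limma p under 0.05 was held by 6, 9 and 9 of the 10 markers at 24 h and 8, 9 and 10 at 96 h. For all tested probes that share was 10.6%, 16.6% and 23.8% at 24 h and 15.4%, 24.4% and 29.4% at 96 h. At 0.5 µg/L and 96 h the list median was -0.69. Some of these markers were saturated in Cy5, on up to 22 of 35 treated arrays. Of 7 tested exocrine pancreas markers, 4 rose at 50 µg/L and 96 h (list median 0.93), where 9.19% of all tested probes did. In the other 5 comparisons 0 were called by limma, and 0 to 5 had an unadjusted p under 0.05. At 0.5 and 5 µg/L and 96 h that list's medians were 0.94, with 5 of 7 at an unadjusted p under 0.05, and 0.02, with 1 of 7. Of 7 tested testis markers 0, 1 and 2 rose at 0.5, 5 and 50 µg/L and 24 h and 1, 1 and 2 at 96 h. Of all tested probes 0.209%, 2.93% and 7.09% rose at 24 h and 2%, 7.12% and 9.19% at 96 h. Of 9 tested oocyte and ovary markers none was called in any comparison in limma, with 0 to 3 at an unadjusted p under 0.05. No erythrocyte marker (5 tested) or macrophage and neutrophil marker (4 tested) was called in limma, with 0 to 2 per list at an unadjusted p under 0.05. Of 4 intestine markers 1 fell at 50 µg/L and 96 h, where 8.78% of all tested probes did. Of 5 muscle markers 1 fell at 50 µg/L and 24 h, where 5.7% of all tested probes did. The part of cell composition in the vitellogenin differences was not tested beyond these values.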

How the data were processed

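Liver RNA of 35 estradiol-treated and 15 untreated male zebrafish was hybridised against a common pool, per the labels' protocols. The authors deposited 1 log2 ratio of sample over pool per probe and array; its normalization is not given in the sources used here. Scanner output of treated fish holds, per the file headers, spot intensity in both channels and the percentage of pixels above background plus 2 SD. A spot was above background where this exceeded 50% and saturated at 65535.

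Ratios were centred on each array's median. Probes with at least 3 values in each of 8 groups (22046) were fitted with limma 3.58.1 in R 4.3.3. The fit used lmFit, eBayes and all 50 arrays, with Benjamini-Hochberg over all tested probes and a threshold of 0.05. The procedure was run on simulated normal values with 1 spread per probe, shared by all groups, and no saturation. That run does not cover unequal spreads between groups or saturated spots. Single vtg7 comparisons used two-sided exact permutation tests (scipy 1.17.1), added after the data were seen. The members, gene lists and tests were chosen with earlier results of these data known. Named were all members, of each list the 4 genes with the smallest p at 50 µg/L and 96 h, and the 5 genes nearest to vtg3. Also named was ctsla, the gene of its list that fell at 24 h. A gene with several probes was read from the one brightest in Cy3. The labels' replicate numbers were not used to pair samples. Deviations of same-numbered arrays correlated at a median of -0.02 (highest 0.568) over 157 pairs. For arrays with different numbers the median was -0.007 (highest 0.506) over 932 pairs. These medians cannot exclude pairing between some of the groups. Array numbers limit the precision.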

Additional observations from a re-analysis of the deposited data

Results flagged for a closer look

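Of 56 groups of 4 to 10 arrays tested for a single far value (the gap to the nearest other array over the range of the group, against Dixon's 95% limit), 4 held one; chance gives about 1 in 20. vtg2 read 0.37 on replicate 1 of the untreated fish at 96 h, the other 6 of that group being at or below -0.01. vtg4 read 1.03 on replicate 2 of 5 µg/L at 24 h. vtg5 probe 5464359 read 0.13 on replicate 4, and vtg5 probe 5465107 read 1.60 on replicate 5, both of 50 µg/L at 24 h and both low-signal arrays.

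For 2 members the difference between 0.5 µg/L and untreated fish was not the same at the 2 times by the limma test of that difference. It was larger at 96 h than at 24 h by 3.41 for the vtg3 probe brightest in Cy3 (adjusted p = 1.93e-07) and by 4.68 for vtg7 (adjusted p = 2.78e-05). The first was held down by saturated spots, and it also depends on the scaling. Beside the second stands the lower pool signal on the vtg7 spot at 96 h, -2.50 in log2 Cy3, whose part in it was not tested. Cy5 over the array's median was higher by 1.95 there.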

How the results depend on the processing

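With saturated Cy5 spots set to missing, no vtg3 probe could be tested, and the number of vitellogenin probes that rose was 0, 1 and 2 at 0.5, 5 and 50 µg/L and 24 h and 1, 2 and 2 at 96 h; that fall follows from the tested probes being 6 instead of 21. Under every other alternative run these counts stayed within 1.5 times of those reported. The replicate numbers were not used as pairs in the main fit. With a replicate block the counts were 15, 16, 16, 16, 17 and 17. The only call the block changed was that of vtg4 at 50 µg/L and 24 h, which was lost (0.49, limma adjusted p = 0.109).

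Reversals concerned differences that were not called in either setting, and their cause was not tested. With quantile normalization vtg3 (the probe brightest in Cy3) differed by -0.52 between 5 and 0.5 µg/L at 96 h and by -0.0789 for the 5 µg/L effect between times, vtg5 probe 5465107 by 0.0126 at 0.5 µg/L and 24 h, and vtg7 by 0.0129 between untreated groups and by -0.0401 between 50 and 5 µg/L at 96 h. With array weights the step of the same vtg3 probe from 0.5 to 5 µg/L at 96 h was -0.0419. Over the 15 vtg3 probes this step ran from -0.0419 to 0.464, and with quantile normalization from -0.52 to 0.099. The weights also gave vtg2 a difference of 0.0854 at 5 µg/L and 24 h and vtg6 one of 0.0737 at 0.5 µg/L and 24 h. They gave vtg5 probe 5465107 at 0.5 µg/L 0.0316 after 24 h and -0.0062 after 96 h. For vtg7 the value was -0.0815 between 50 and 5 µg/L at 96 h. With pooled controls vtg2 gave 0.19 (5 µg/L, 24 h) and -0.15 (0.5 µg/L, 96 h), vtg4 -0.0247 (0.5 µg/L, 24 h) and 0.058 (50 µg/L, 96 h), and vtg5 probe 5464359 -0.0238 (0.5 µg/L, 24 h). Without low-signal arrays vtg7 differed by -0.0721 between 50 and 5 µg/L at 96 h, in the fit and in the exact permutation test.

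Leaving out each array in turn, the differences that crossed 0 ran from -0.16 to 0.19 (vtg3, untreated 96 against 24 h), -0.15 to 0.36 (vtg3, 5 against 0.5 µg/L, 96 h), -0.0353 to 0.13 (vtg2, 50 µg/L, 24 h), -0.0378 to 0.16 and -0.31 to 0.0016 (vtg5 probe 5464359, 0.5 and 5 µg/L, 24 h), -0.11 to 0.0622, -0.16 to 0.0138 and -0.0181 to 0.15 (vtg5 probe 5465107, 0.5 and 5 µg/L at 24 h and 0.5 µg/L at 96 h), -0.16 to 0.0141 and -0.0945 to 0.16 (vtg6, 0.5 µg/L at 24 h and 50 µg/L at 96 h) and -0.38 to 0.33 (vtg7, 50 against 5 µg/L, 96 h). The vtg3 values in that list are those of the probe brightest in Cy3. The vtg2 difference between untreated groups lost its call with the fit limited to its own arrays (limma adjusted p = 0.121). vtg7 at 0.5 µg/L and 24 h passed the threshold with array weights (1.60, adjusted p = 0.0161), pooled controls (1.89, 0.0261) and quantile normalization (1.82, 0.0484), and the range of its adjusted p without single arrays was 0.000937 to 0.367. The 5 µg/L effect of vtg7 between times passed in the fit limited to its own arrays (2.26, adjusted p = 0.0323).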
